A study of Mus musculus with 8 samples.

Results

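A set of 10 genes of hepatic fatty acid synthesis was followed in liver RNA: the regulators Srebf1 (SREBP-1) and Mlxipl (ChREBP) and 8 genes that they are known to control, Acly, Acaca, Acacb, Fasn, Acss2, Me1, Thrsp and Pnpla3. They were taken by gene symbol from a table of 22564 genes, and all 10 were found in it. The 8 target genes were then set against the 2 regulators in every library. RNA sequencing covered livers of untreated db/db mice (4 libraries) and of untreated C57BL/6 controls (4 libraries). The db/db mouse carries a defect of the leptin receptor gene, overeats, and becomes obese and diabetic with a fatty liver. The labels give no age, sex or background strain for the db/db mice, and the study's methods describe db/db mice bought from another source, and at a younger age, than its C57BL/6J mice. Whether the controls were among those C57BL/6J mice is not given, so genotype, background strain, supplier and age cannot be told apart. The sources do not say outright that each library is a separate animal, so the p-values speak of library-to-library spread, part of which may be technical.

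De novo lipogenesis turns citrate and acetate into fatty acids. Acetyl-CoA is made in the cytosol by ACLY from citrate and by ACSS2 from acetate, the carboxylases ACACA and ACACB turn it into malonyl-CoA, and FASN builds palmitate from it with NADPH, part of which comes from the malic enzyme ME1. In the liver SREBP-1c, the product of Srebf1 that answers to insulin, must be released from an endoplasmic reticulum membrane before it enters the nucleus, and ChREBP is activated by metabolites of glucose. The mRNA level of either regulator is therefore only part of what sets its activity.

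All 10 genes were matched by symbol to RefSeq promoter windows (GRCm38.p6), which list 14 start sites for them, 3 of Srebf1, 2 each of Mlxipl and Me1, and 1 of each other gene. The 150 bases before the start are shown for Fasn, Thrsp and Pnpla3, the targets with the largest ratios of mean level between the groups, and for both starts of Mlxipl, since the deposited level of Mlxipl does not separate them. Each is given 5′ to 3′ on the strand of the gene. Capitals mark the letters of 4 motifs searched on both strands: the sterol element TCACNCCAC, the E-box CACGTG, the CCAAT box and the GC box GGGCGG.
Fasn, chr11:120824548-120824697, minus strand: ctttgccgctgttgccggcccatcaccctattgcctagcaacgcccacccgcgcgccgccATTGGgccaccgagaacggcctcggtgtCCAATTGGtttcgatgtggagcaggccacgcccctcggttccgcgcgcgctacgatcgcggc
Thrsp, chr7:97417551-97417700, minus strand: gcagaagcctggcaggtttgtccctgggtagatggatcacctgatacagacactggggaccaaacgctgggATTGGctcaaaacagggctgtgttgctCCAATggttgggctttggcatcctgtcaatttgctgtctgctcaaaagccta
Pnpla3, chr15:84167666-84167815, plus strand: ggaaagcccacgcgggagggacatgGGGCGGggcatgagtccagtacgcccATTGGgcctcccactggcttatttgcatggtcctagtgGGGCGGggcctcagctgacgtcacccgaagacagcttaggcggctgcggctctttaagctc
Mlxipl, upstream start, chr5:135089740-135089889, plus strand: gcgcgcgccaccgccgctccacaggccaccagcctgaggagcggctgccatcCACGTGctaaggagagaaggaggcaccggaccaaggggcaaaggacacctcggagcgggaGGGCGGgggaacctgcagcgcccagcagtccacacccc
Mlxipl, downstream start, chr5:135106741-135106890, plus strand: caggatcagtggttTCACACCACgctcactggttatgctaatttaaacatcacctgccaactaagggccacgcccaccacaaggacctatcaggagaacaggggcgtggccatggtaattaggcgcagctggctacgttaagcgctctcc

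Fasn held 3 CCAAT boxes, at -90, -62 and -59 from its start, the last pair overlapping on opposite strands. Thrsp held 2, at -79 and -52, and Pnpla3 held 1, at -99, with 2 GC boxes. CCAAT boxes stood before 6 of the 14 starts, against 24.5% of 32851 mouse starts, and GC boxes before 7 of the 14, against 28.6%. The E-box stood before the upstream start of Mlxipl alone (4.3% of all starts), and the sterol element before its downstream start alone (0.639% of all starts). A match is a string of letters and no measured binding site.

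Levels are FPKM, fragments normalised to the length of the transcript and the size of the library. The sum of FPKM was 555661 to 602391 per db/db library and 641355 to 676884 per control library. In db/db libraries 9704 to 9948 genes reached 1 FPKM, against 9592 to 9671 in control libraries, so the groups did not overlap in either quantity. Read totals are unknown; the lowest values place the relative depth of the libraries between 0.81 and 1.1. Fold changes are differences of log2(FPKM + 1), db/db minus control, and adjusted p-values are from limma over 9863 genes, those that reached 1 FPKM in 4 or more libraries. The median fold change over these genes was 0.042 on the log2 scale. Replicates are numbered for naming only: db/db replicates 1 to 4 are the libraries titled db1, db2, db4 and db5, and control replicates 1 to 4 are C5 to C8.

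Neither regulator passed the test at the mRNA level. Srebf1 had 86.3, 59.2, 52.3 and 31.7 FPKM in replicates 1 to 4 of the db/db group, against 49.7, 31.5, 66.1 and 29.7 FPKM in control replicates 1 to 4. The groups overlapped over most of their ranges, and only db/db replicate 1 stood above every control. The means were 57.4 ± 22.6 FPKM in db/db and 44.3 ± 17.2 FPKM in control livers (SD, n = 4 each), a log2 fold change of 0.36 ± 0.31 (SE) with an adjusted p of 0.424, and 0.14 (adjusted p = 0.775) without db/db replicate 1. Mlxipl stood at 92.5, 93.3, 97.2 and 102.8 FPKM in db/db libraries, against 122, 121.4, 115.3 and 88.0 FPKM in control libraries. All db/db values lay close together, and 3 of 4 controls were above them. The log2 fold change of Mlxipl was -0.20 ± 0.12 (SE), with an adjusted p of 0.246. Without control replicate 4, the lowest control, it was -0.31 with an adjusted p of 0.0487, so the call for Mlxipl depends on that library.

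The gene-level value of Srebf1 sums SREBP-1a and SREBP-1c, and that of Mlxipl does not separate ChREBP alpha and beta. Srebf1 lies on chromosome 11 (chr11:60199089-60222581, minus strand, mm10) and Mlxipl on chromosome 5 (chr5:135089890-135138382, plus strand). The deposited locus of Mlxipl begins 17001 bases after the gene's first annotated base, at the downstream start, so the upstream start lies outside it. The deposited locus of Srebf1 runs on past the end of the gene, to base 60105013.

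**Figure D1:**
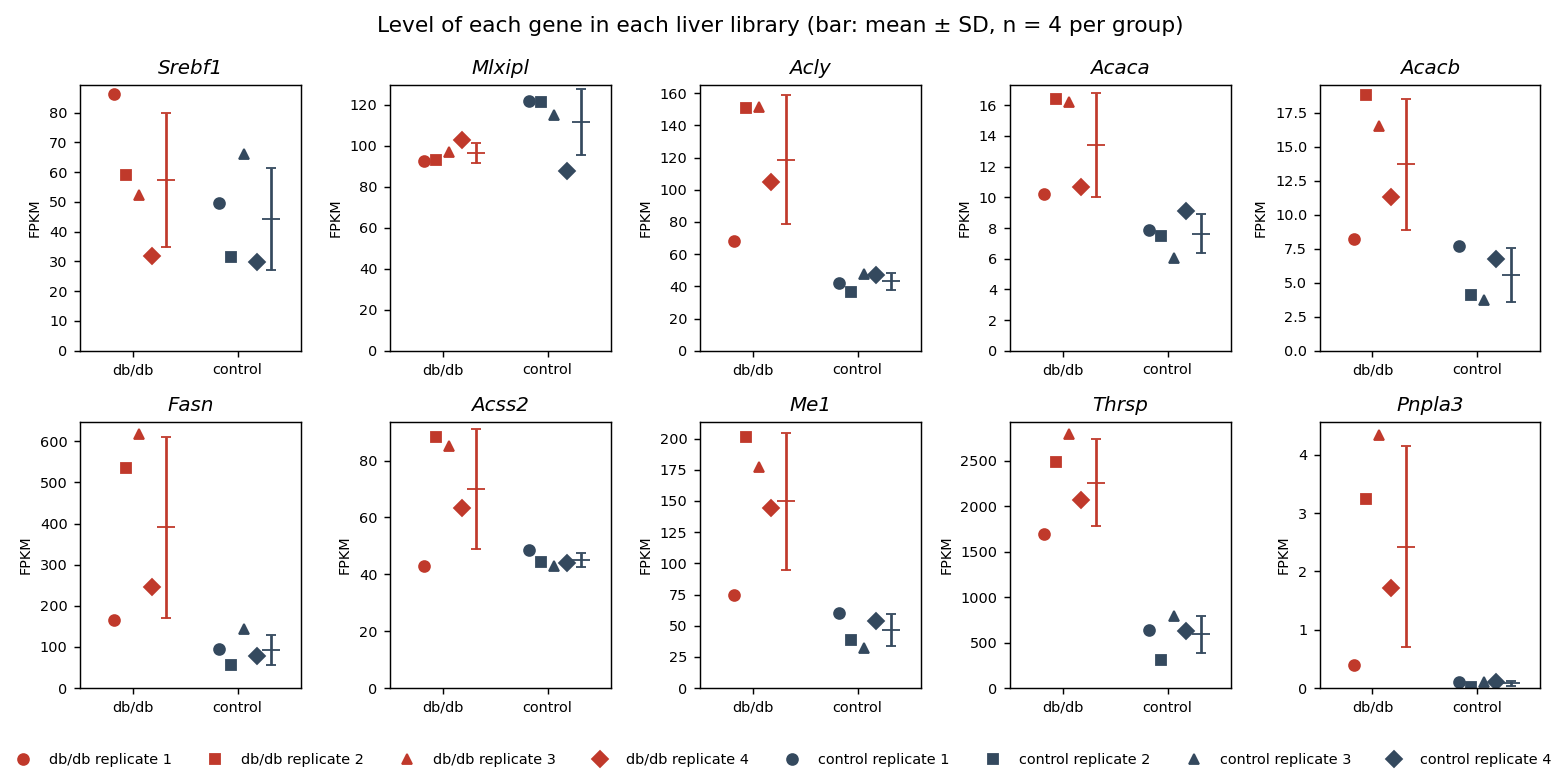
Level of each of the 10 genes in FPKM (y axes, from 0) in each db/db (red, left) and control (blue, right) library, with marker shapes for replicates and bars for the mean ± SD of 4 libraries. The db/db libraries stood above all controls for 6 of the 9 tested genes and for Pnpla3, which was not tested. Srebf1, Mlxipl and Acss2 overlapped.

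Of the pair of genes that supply cytosolic acetyl-CoA, Acly rose and Acss2 did not pass the test. Acly, ATP citrate lyase (chr11:100476353-100528000, minus strand), stood at 68.2, 150.6, 151.7 and 104.8 FPKM in db/db, against 42.2, 36.2, 47.5 and 47.0 FPKM in control livers. All db/db libraries were above all controls, replicate 1 by the least. Acly averaged 119 ± 40.2 FPKM in db/db and 43.2 ± 5.24 FPKM in control livers (SD, n = 4 each), a log2 fold change of 1.38 ± 0.23 (SE, adjusted p = 0.00148). Acss2, the acetyl-CoA synthetase of cytosol and nucleus (chr2:155517948-155585724, plus strand), stood at 42.9, 88.2, 85.2 and 63.3 FPKM in db/db, against 48.6, 44.4, 42.9 and 43.9 FPKM in control livers. In db/db replicate 1 Acss2 lay at the level of the controls, and the other 3 db/db libraries were above all of them. Its log2 fold change was 0.57 ± 0.20 (SE, adjusted p = 0.0545), and without db/db replicate 1 it was 0.78 (adjusted p = 0.0019).

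The balance within this pair moved in every db/db library. The FPKM ratio of Acly to Acss2 was 1.59, 1.71, 1.78 and 1.66 in db/db, against 0.867, 0.816, 1.11 and 1.07 in control livers. The ratio was nearly the same in all 4 db/db libraries, db/db replicate 1 included, although the levels of both genes varied there. The mean ratio was 1.68 ± 0.0809 in db/db and 0.966 ± 0.146 in control livers (SD, n = 4 each), and the log2 difference was 0.80 with a 2-sided exact permutation p of 0.0286, the smallest that the 70 regroupings of 4 against 4 allow. The deposited locus of Acss2 extends into neighbouring genes on the other strand, and 8.69% of the 31-base words of Acss2 also occur elsewhere, most in Ggt7.

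Both acetyl-CoA carboxylase genes rose. Acaca, the cytosolic form that feeds fatty acid synthesis (chr11:84129672-84401651, plus strand), stood at 10.2, 16.4, 16.2 and 10.7 FPKM in db/db, against 7.89, 7.46, 6.05 and 9.11 FPKM in control livers. The groups did not overlap, with db/db replicates 1 and 4 just above the highest control. The log2 fold change was 0.72 ± 0.18 (SE, adjusted p = 0.0128). Acacb, the mitochondrial form whose malonyl-CoA restrains CPT1 (chr5:114146535-114250761, plus strand), stood at 8.19, 18.8, 16.6 and 11.3 FPKM in db/db, against 7.72, 4.06, 3.70 and 6.78 FPKM in control livers. Again all db/db libraries were higher, replicate 1 by a narrow margin. Acacb averaged 13.7 ± 4.84 FPKM in db/db and 5.57 ± 1.99 FPKM in control livers (SD, n = 4 each), a log2 fold change of 1.15 ± 0.27 (SE, adjusted p = 0.00945).

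The FPKM ratio of Acacb to Acaca was 0.801, 1.14, 1.02 and 1.06 in db/db, against 0.978, 0.545, 0.612 and 0.744 in control livers. Control replicate 1 lay among the db/db values, and the log2 difference of 0.43 had an exact permutation p of 0.0571, short of the threshold. Of the 31-base words of Acaca, 56.8% also occur elsewhere, most in Gm5182, so its level and this ratio are uncertain where reads were shared out between them.

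Fasn and Me1, for chain building and NADPH, rose together. Fasn, the multifunctional fatty acid synthase (chr11:120805846-120824547, minus strand), stood at 165, 534, 618 and 246 FPKM in db/db, against 95.1, 56.8, 142.5 and 76.9 FPKM in control livers. The db/db libraries spread over a 3.75-fold range, replicates 2 and 3 high and replicates 1 and 4 low, and all exceeded the highest control. Fasn averaged 391 ± 219 FPKM in db/db and 92.8 ± 36.6 FPKM in control livers (SD, n = 4 each), a ratio of means of 4.21 and a log2 fold change of 1.94 ± 0.41 (SE, adjusted p = 0.0055). Me1, the cytosolic malic enzyme (chr9:86581371-86695953, minus strand), stood at 75.0, 201.2, 177.5 and 144.7 FPKM in db/db, against 60.5, 38.7, 32.4 and 54.1 FPKM in control livers. Replicate 1 of db/db was again nearest to the controls. Me1 averaged 150 ± 54.9 FPKM in db/db and 46.4 ± 13.1 FPKM in control livers (SD, n = 4 each), a log2 fold change of 1.62 ± 0.29 (SE, adjusted p = 0.00247). Of its 31-base words, 42.2% also occur elsewhere, most in Gm7049, so the level of Me1 is uncertain.

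Thrsp, known as Spot 14 (chr7:97412938-97417730, minus strand), is a small protein that helps lipogenesis in liver and answers to thyroid hormone and carbohydrate. It had the highest levels of the 10 genes, with 1692.5, 2482, 2799 and 2069 FPKM in db/db, against 639, 312, 791 and 623 FPKM in control livers. The lowest db/db library was above the highest control by more than the whole range of the controls. Thrsp averaged 2261 ± 482 FPKM in db/db and 591 ± 201 FPKM in control livers (SD, n = 4 each), a log2 fold change of 1.99 ± 0.27 (SE, adjusted p = 0.000393).

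Pnpla3, a lipid droplet protein with a known human risk variant for fatty liver (chr15:84167837-84187236, plus strand), was the lowest of the 10 genes. Its levels were 0.404, 3.24, 4.34 and 1.72 FPKM in db/db, against 0.108, 0.0147, 0.0960 and 0.0979 FPKM in control livers. All controls were near the bottom of the scale, and db/db replicate 1 lay closer to them than to the other db/db libraries. Only 3 libraries reached 1 FPKM, so Pnpla3 was not tested among the 9863 genes. With no filter on low values its log2 fold change was 1.5 (adjusted p = 0.0284), which understates the change of so low a gene. The ratio of its mean levels was 30.7, and the exact permutation p was 0.0286.

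Of the 9 genes tested, 6 rose (Acly, Acaca, Acacb, Fasn, Me1 and Thrsp) and none fell. All 6 passed the filter in both groups. Over all tested genes 16% rose and 11.6% fell, or 1582 against 1147 genes, and the counts were near equal under quantile normalization (1404 and 1384) or scaling by median ratios (1354 and 1351). The db/db libraries were above all controls for the same 6 of the 9 genes tested, against 17.3% of all tested genes. They were also above all controls for Pnpla3, which is not counted, since it was not tested and reached 1 FPKM in db/db libraries only. The 8 target genes together summed to 2062, 3495, 3868 and 2652 FPKM in db/db, against 901, 499.7, 1066 and 861 FPKM in control livers, most of it Thrsp. Supplementary lists of the study already name Acly, Acaca, Acacb, Fasn, Me1, Thrsp and Pnpla3 as changed in db/db livers, so these counts are not independent evidence.

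Within the db/db group the target genes shared an order that Srebf1 did not. Db/db replicate 1 was the lowest of the 4 libraries for 8 of 8 targets, and for 30.3% of all tested genes. It was the highest for 33.8% of all tested genes. It was also lowest for 9 of 13 further SREBP-1c targets, 9 of 15 ChREBP targets of sugar handling and 7 of 13 genes of acetyl-CoA and NADPH supply. These counts include Scd2, lowest in db/db replicate 1, and Acss3, highest there, which reached the filter through the db/db libraries only. Other lists went the other way. Of 15 genes that control SREBP-1c it was lowest for 2 and highest for 7. Of 9 other targets of liver X receptors it was lowest for 1 and highest for 5. The highest library was replicate 2 for Acacb, Acaca, Acss2 and Me1 and replicate 3 for Acly, Fasn, Thrsp and Pnpla3. Srebf1 was highest in replicate 1 and lowest in replicate 4. Db/db replicate 1 also stood apart over the whole table, at 27.6 on the second principal component (10.3% of variance), with the other db/db libraries between -14.8 and -4.97. Whether that separation has a part in the low target levels was not tested. In the control group no such common order was seen, since replicate 2 was lowest for 4 targets and replicate 3 for the other 4.

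In db/db livers the spread inside the group was wide for most of these genes, and in control livers it was wide for Srebf1, Acacb, Fasn, Me1 and Thrsp only. The SD of log2(FPKM + 1) was 0.906 in db/db and 0.551 in control livers for Fasn, wider than 99.2% and 96.8% of tested genes. For Srebf1 it was 0.585 in db/db and 0.538 in control livers, against medians over all tested genes of 0.185 and 0.193. Mlxipl had a narrow spread in db/db livers, 0.069, against 0.222 in control livers. Acss2 varied in db/db livers (0.475) and hardly in control livers (0.078).

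**Figure D2:**
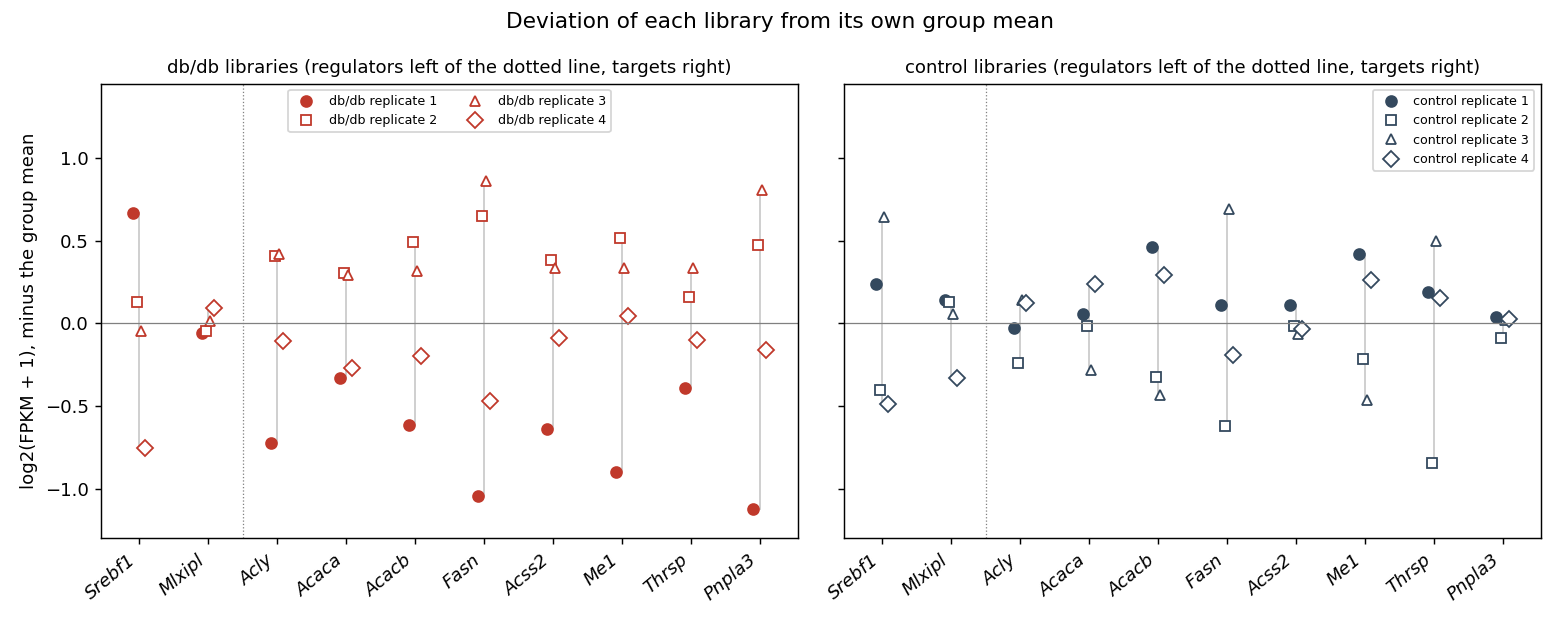
Deviation of log2(FPKM + 1) from the group mean (y axis) for the 2 regulators and the 8 targets (x axis) in db/db (left) and control (right) libraries, with a marker shape for each replicate. Db/db replicate 1, the filled circle, is the highest db/db library for Srebf1 and the lowest for 8 of 8 targets.

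Setting each target against Srebf1 asks whether the targets differed between the groups by more than the regulator. Fasn relative to Srebf1 was 1.91, 9.03, 11.8 and 7.76 in db/db, against 1.91, 1.80, 2.16 and 2.59 in control livers, as FPKM ratios. The other 3 db/db libraries stood far above the controls and replicate 1 lay among the controls. Thrsp relative to Srebf1 was 19.6, 41.9, 53.5 and 65.3 in db/db, against 12.8, 9.89, 11.97 and 20.99 in control livers. Here too replicate 1 lay among the controls, below their highest value.

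With Srebf1 subtracted on the log2 scale from every gene, limma called 2 of 7 tested targets higher, Fasn by 1.59 ± 0.47 (SE, adjusted p = 0.0246) and Thrsp by 1.63 ± 0.47 (SE, adjusted p = 0.022), against 1.08% of all genes. The spread of Srebf1 is shared by every gene in that fit, and whether its p-values are well calibrated was not tested. The exact permutation p was 0.0857 for Fasn and 0.0571 for Thrsp. In that exact test, of 70 regroupings, none of the 8 targets passed, with p from 0.0571 to 0.629. The differences of the others were 1.02 for Acly, 1.26 for Me1, 0.79 for Acacb, 0.36 for Acaca and 0.21 for Acss2. The limma count depended on single libraries, being 0 without db/db replicate 2 or 3 or control replicate 1 or 2, and 1 without control replicate 4. Without db/db replicate 1 limma called 4 of 7, Acly by 1.48 (adjusted p = 0.0325), Fasn by 2.15 (7.87e-05), Me1 by 1.78 (0.00293) and Thrsp by 1.98 (0.000465), again against 1.08% of all genes. The exact test then gave 0.0286, the smallest p of 3 against 4 libraries, for those 4 and for Pnpla3, which reached 1 FPKM in db/db libraries only. It was not run over all genes, so no share of all genes stands beside this result. This exact test was added after the data were seen.

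Relative to Mlxipl every target was higher on average in db/db livers, though not in every library. The FPKM ratio of Acss2 to Mlxipl was 0.464 in db/db replicate 1, below the 0.499 of control replicate 4. All 7 tested targets passed, with log2 differences from 0.77 ± 0.21 (SE, adjusted p = 0.0112) for Acss2 to 2.18 ± 0.26 (SE, adjusted p = 6.06e-06) for Thrsp, against 20.6% of all genes. Without db/db replicate 2 the adjusted p of Acss2 was 0.0531 and 6 of 7 passed. Fasn relative to Mlxipl was 1.78, 5.73, 6.36 and 2.39 in db/db, against 0.779, 0.468, 1.24 and 0.874 in control livers, as FPKM ratios. Every db/db ratio exceeded every control ratio, db/db replicate 1 included. The log2 difference for Fasn was 2.14 ± 0.34 (SE, adjusted p = 0.000152). By the exact test Acly, Acacb, Fasn, Me1, Thrsp and Pnpla3 had a p of 0.0286, and Acaca and Acss2 had 0.0571. Pnpla3 reached 1 FPKM in db/db libraries only. The exact test was not run over all genes, so these p-values have no share of all genes beside them. The calibration of this fit was not tested either. Mlxipl varied little, so this comparison is close to that of the levels themselves and shares its libraries.

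**Figure D3:**
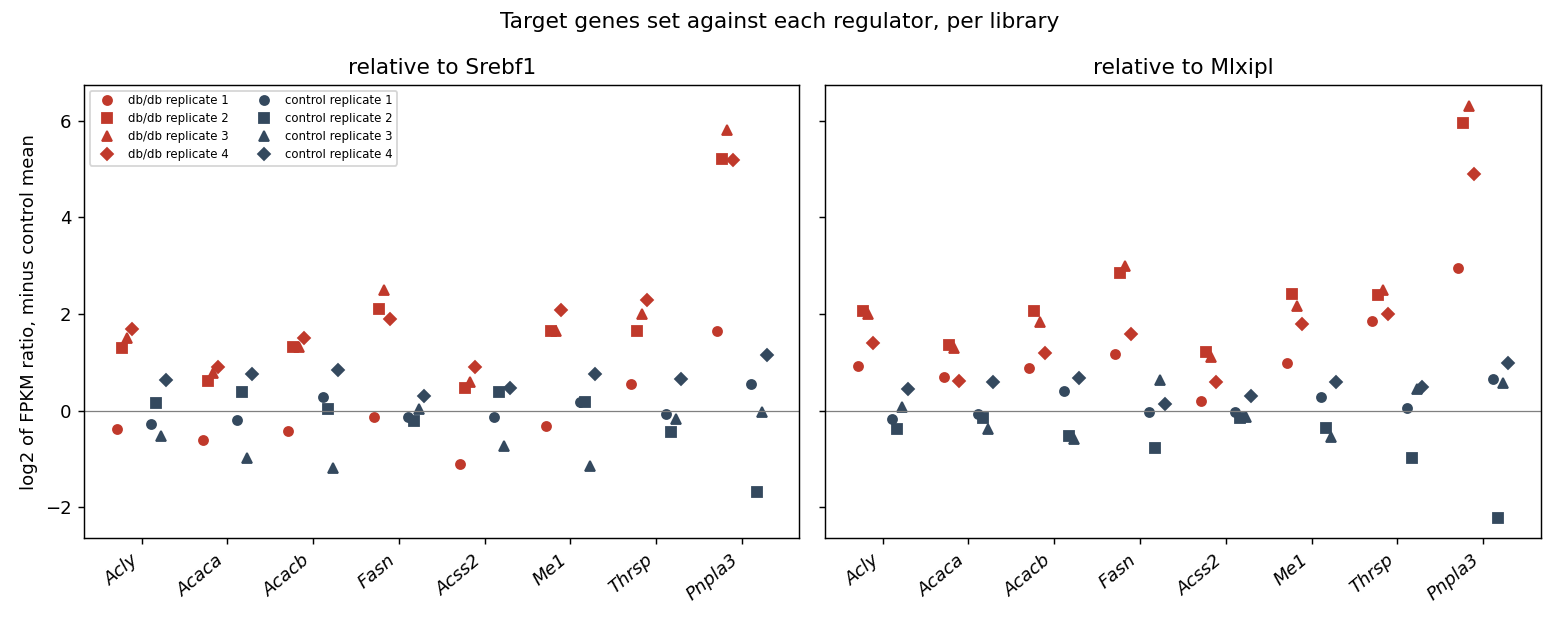
FPKM of each target over Srebf1 (left) or over Mlxipl (right) in each library, as log2 with the control mean set to 0 (y axis), db/db in red and control in blue. Over Srebf1, db/db replicate 1 (red circle) lies at or near the controls for most targets, whereas over Mlxipl it lies above all controls for 7 of the 8.

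Other targets known for SREBP-1c moved in the same direction as the members, though not all of them. Of 12 that reached the filter in both groups, 6 rose and none fell, against 16% and 11.6% of all tested genes, and the median log2 fold change was 0.42. This list and those below were chosen with earlier results of these data known, so their counts are not independent evidence. Supplementary lists of the study already name Scd1, Elovl6, Elovl5, Gpam, Pklr, G6pc, Pgd and Insig2 as changed in db/db livers. The desaturase gene Scd1, which makes monounsaturated fatty acids, averaged 3457 ± 1202 FPKM in db/db and 419 ± 108 FPKM in control livers (SD, n = 4 each), a log2 fold change of 3.0. Elovl6, which lengthens palmitate, averaged 56.98 ± 12.1 FPKM in db/db and 6.56 ± 3.48 FPKM in control livers, a log2 fold change of 3.02. Among the 13 tested genes of this list, Scd2 included, 9 were lowest in db/db replicate 1, Scd2 among them. Elovl6 alone was highest there, with 73.8, 46.7, 50.1 and 57.3 FPKM in db/db libraries. Elovl5 (2.36), Gpam (2.26), the mitochondrial glycerol-phosphate acyltransferase, Agpat2 (1.46) and Lpcat3 (0.46) also rose on the log2 scale, though the call for Lpcat3 was lost without any of 7 libraries. Scd2 is left out of the count of genes that rose, since it reached the filter through the db/db libraries only, with 1.02, 1.58, 2.88 and 2.17 FPKM in db/db, against 0.355, 0.360, 0.953 and 0.746 FPKM in control livers.

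Genes of sugar handling known as ChREBP targets rose in 9 of 15 cases and none fell, against 16% and 11.6% of all tested genes, with a median log2 fold change of 0.595. Pklr, liver pyruvate kinase, averaged 185 ± 33.8 FPKM in db/db and 75.5 ± 22.6 FPKM in control livers (SD, n = 4 each), a log2 fold change of 1.31 (adjusted p = 0.00145). Gpd1, which makes glycerol 3-phosphate, rose by 1.41, Gckr by 0.98 and Khk, ketohexokinase, by 0.82 on the log2 scale. G6pc, Slc2a2, Tkt and Tkfc also passed. Txnip, which answers to glucose in many tissues, had a log2 fold change of 0.28 (adjusted p = 0.562).

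Of 12 genes that supply acetyl-CoA or NADPH and reached the filter in both groups, 6 rose and none fell, against the same shares of all genes, and the median log2 fold change was 0.43. Acss3, a mitochondrial acyl-CoA synthetase, stood at 19.2, 12.1, 8.66 and 13.4 FPKM in db/db, against 0.885, 0.1996, 0.346 and 0.638 FPKM in control livers. The lowest db/db library was far above the highest control. Acss3 reached the filter through the db/db libraries only, so these levels are given as a description and are not counted. Pgd, of the pentose phosphate pathway, rose by 0.99, Pcx, pyruvate carboxylase, by 0.85, Pdha1 of the pyruvate dehydrogenase complex by 0.81, Mdh1 by 0.74, Idh1 by 0.51 and Dlat by 0.50, and the call for Dlat was lost without any of 5 libraries. G6pdx, which opens the pentose phosphate pathway (-0.10, adjusted p = 0.699), and the citrate carrier Slc25a1 (0.26, adjusted p = 0.111) did not pass.

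Of 15 genes that control SREBP-1c, 1 rose and 1 fell, below the 16% and 11.6% of all tested genes, and the median log2 fold change was -0.02. The gene that rose was Insig2, which retains the SREBP escort protein in the endoplasmic reticulum, at 113, 102, 105 and 119 FPKM in db/db, against 19.2, 26.0, 18.3 and 21.7 FPKM in control livers. Replicates were tight in both groups, and the log2 fold change was 2.32 ± 0.12 (SE, adjusted p = 5.96e-07). Erlin1 fell by 0.51 on the log2 scale (adjusted p = 0.00618). Rxra, a partner of the liver X receptors, had a log2 fold change of -0.41 (adjusted p = 0.0626), and passed without db/db replicate 1 (-0.55, adjusted p = 0.00895), with array weights and with both other scalings. Scap, the escort protein, stood at 12.5 ± 1.69 FPKM in db/db and 14.5 ± 1.5 FPKM in control livers (SD, n = 4 each). Of 9 other targets of liver X receptors, 1 rose, a share below that of all tested genes, Smpdl3a, by 0.71 on the log2 scale (adjusted p = 0.00899). Of 11 factors known to act with SREBP-1c or ChREBP at promoters, none rose and 3 fell, against 16% and 11.6% of all tested genes, Usf1 by 0.61, Hcfc1 by 0.35 and Nfyc by 0.29 on the log2 scale. None of these 3 calls held without db/db replicate 1, with adjusted p-values of 0.0914, 0.0852 and 0.0621, and each was also lost on leaving out several other libraries.

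The next 3 lists hold genes that act beside the carboxylases and PNPLA3, or in the mitochondrial pathway, and their counts are to be read against the 16% of all tested genes that rose. Of 11 genes that control acetyl-CoA carboxylase or malonyl-CoA, 2 rose and none fell, Hlcs, which attaches biotin to carboxylases, by 0.51 (adjusted p = 0.0104) and the AMP kinase subunit gene Prkag2 by 0.36 (adjusted p = 0.0214, a call lost without any of 5 libraries). Of 9 genes of mitochondrial fatty acid synthesis, 3 rose, Lias, Acsf3 and Cbr4, by 0.65, 0.53 and 0.47, and Cbr4 no longer passed with any of 6 libraries left out. Of 6 PNPLA genes and lipase cofactors, 1 rose, G0s2, an inhibitor of the lipase PNPLA2, with 128, 332, 422 and 268 FPKM in db/db, against 123, 131, 47.0 and 26.9 FPKM in control livers. Db/db replicate 1 lay among the controls for G0s2, and the log2 fold change was 1.95 (adjusted p = 0.0156), a call that was lost with no filter on low values. Pnpla2 itself had a log2 fold change of -0.19 (adjusted p = 0.187).

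**Figure D4:**
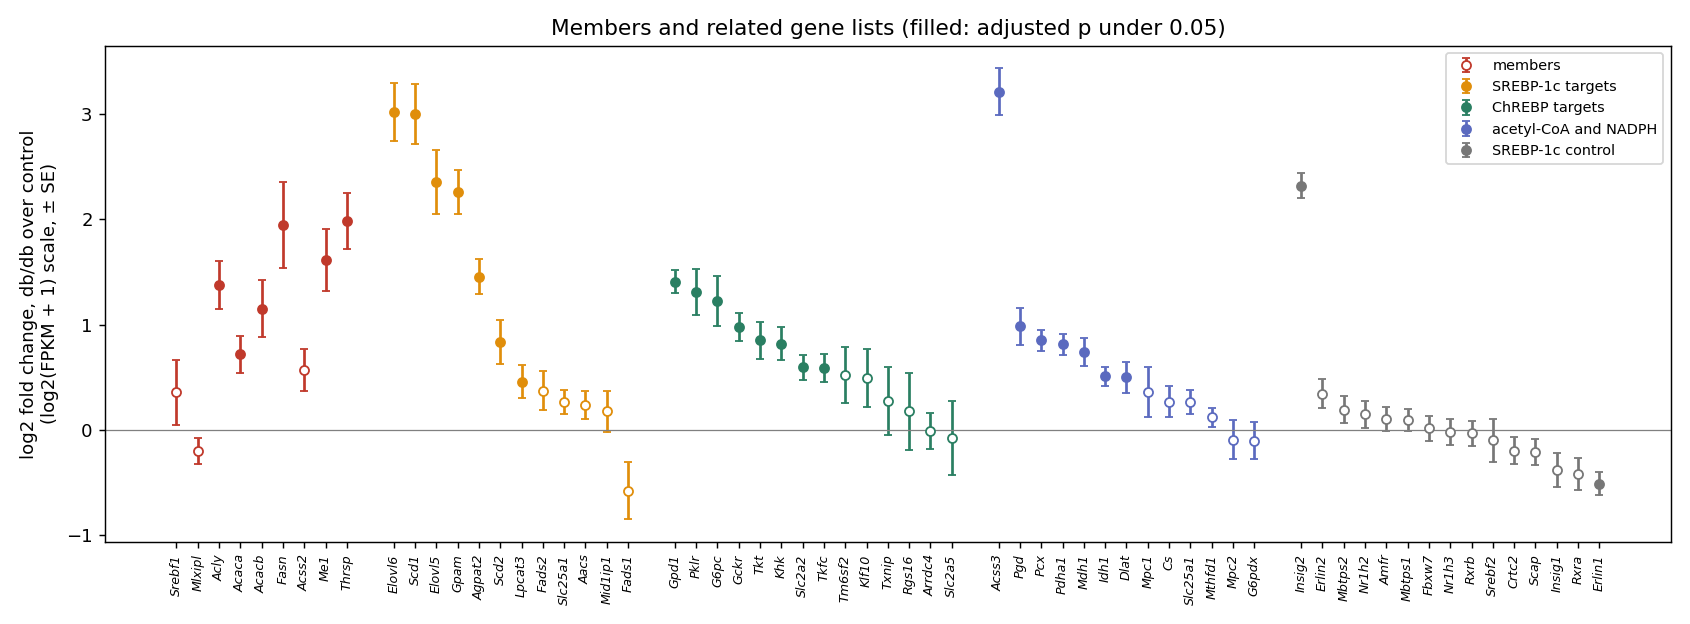
Log2 fold change of db/db over control livers on the log2(FPKM + 1) scale with its SE (y axis) for the 9 tested members and tested genes of 4 related lists, filled where the adjusted p was under 0.05. Scd2 and Acss3 reached the filter through the db/db libraries only. Among the SREBP-1c control genes Insig2, at 2.32, is the only filled point above 0.

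The genes whose deviations from their group means over the 8 libraries were closest to those of Fasn, the 10 members left out, were Smim22, S100a11, Tubb2a, Chka and Mvd, with root mean square differences of 0.195 to 0.328 on the log2 scale, against a median of 0.670 over 5982 candidates. This measure leaves out the group means, and Smim22 was lower in db/db livers, with a log2 fold change of -2.28, while Tubb2a was higher, with 2.84. Nearest to Srebf1 were Dio1, Sult5a1, Alas2, F12 and Rtkn, from 0.198 to 0.240 against a median of 0.518. Dio1, Sult5a1, F12 and Rtkn were lower in db/db livers, with log2 fold changes of -1.81, -1.67, -1.12 and -1.20. Alas2 did not pass (-0.63, adjusted p = 0.0559), nor did Srebf1 itself.

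The labelled tissue was checked against markers. Hepatocyte markers were abundant, with a summed level of 11870 to 13270 FPKM in db/db and 16930 to 17780 FPKM in control livers. Of these, 2 of 8 (Serpina1a and Ttr) were lower in db/db livers, against 11.6% of all tested genes. Ttr was not lower under quantile normalization, where its direction turned. Without db/db replicate 1, 5 of 8 were lower, Hnf4a, Cyp2e1 and Cps1 as well, and 1043 of all tested genes were lower in that fit. Adipocyte markers, some of which fatty hepatocytes also express, summed to 40.5, 93.8, 80.5 and 53.6 FPKM in replicates 1 to 4 of db/db, against 21.1 to 28.8 FPKM in control livers. Of the 8 adipocyte markers 4 were tested and Cidec and Fabp4 rose, against 16% of all tested genes. Retn reached the filter through the db/db libraries only, at 1.58 to 8.36 FPKM in db/db and 0 to 0.297 FPKM in control livers. Lep was at 0 in all 8 libraries, Plin1 at 0 in all db/db libraries and Adipoq at most 0.286 FPKM in them. The sum was lowest in db/db replicate 1, as were the lipogenic targets, and the part of these cells in the result was not tested. Macrophage markers summed to 76.7 to 103.6 FPKM in db/db and 95.0 to 159.2 FPKM in control livers, and 8 of 8 T and B cell markers were under 1 FPKM. Of 7 macrophage markers that reached the filter in both groups 1 was lower, Clec4f (-0.56, adjusted p = 0.0337, and 0.0802 without db/db replicate 1). Of 6 endothelial markers 1 was lower, Clec4g (-0.50, adjusted p = 0.00422), and of 5 stellate cell markers 1, Des (-0.51, adjusted p = 0.0334). These counts stand against 11.6% of all tested genes. In bulk tissue, a change in the number of cells of a type and a change in RNA per cell cannot be told apart.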

How the data were processed

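Liver RNA of 4 db/db and 4 control libraries was depleted of ribosomal RNA and made into stranded libraries, per the labels. The submitters' processing notes name cutadapt 1.9.3 for trimming, HISAT2 2.0.4 for alignment, Cufflinks and Cuffdiff for quantification, and the build mm10. No annotation release is named there, nor whether strand was used in counting. The authors deposited FPKM per gene and library, for 22564 genes, 6724 of them at 0 in all 8 libraries, and 1 row was empty.

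Values were taken as log2(FPKM + 1), since FPKM keeps no read counts. The 9863 genes that reached 1 FPKM in 4 or more libraries entered a comparison of the groups in limma 3.58.1 under R 4.3.3 (mean-variance trend, 2-sided, no covariate), with Benjamini-Hochberg adjustment over all of them, and an adjusted p under 0.05 was called. List genes that passed this filter through 1 group only are not counted among the genes that rose or fell. The targets were compared with each regulator by subtracting its log2(FPKM + 1) in a library from every gene and refitting. Single ratios and members were also tested by exact permutation of the 8 libraries (70 regroupings, smallest 2-sided p 0.0286). The fit was tested on simulated data. FPKM give no depth, so no counting interval is given.

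The 10 members, the 9 gene lists and the 7 marker lists were chosen with earlier results of these data known. The rule for naming covered the members and, from each list, the 5 tested genes of smallest adjusted p. It also covered any called gene where 5 or fewer were called in a direction. The 5 genes of at least 5 FPKM nearest to Fasn, Srebf1 and Mlxipl were covered too. Those nearest to Mlxipl, and some of the list genes under this rule, are not reported here by name. Other genes were named after their values were seen, and some list genes that were counted are not reported here by name. Alternatives were a pseudocount of 0.1 or 0.5, no filter or 5 FPKM, median-ratio scaling, quantile normalization, no trend, array weights and each library left out. Coordinates are those of GENCODE M21 (mm10), and promoter sequences are from RefSeq (GRCm38.p6).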

Additional observations from a re-analysis of the deposited data

Results flagged for a closer look

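A gap test (Dixon's, at its 95% critical value) was applied to the levels and ratios of the 10 genes in each group of 4 libraries. Of 56 groups of values 2 held a library past that value, and chance flags about 1 in 20 such groups. Pnpla3 stood at 0.0147 FPKM in control replicate 2, where the gap to the next control took a share of 0.875 of the range. At levels this low a few fragments set the value. Acacb relative to Srebf1, as an FPKM ratio, was 0.0949 in db/db replicate 1, with a gap share of 0.847, and that library had the highest Srebf1 and the lowest Acacb of its group.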

How the results depend on the processing

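The number of all tested genes called (2729), the 7 of 7 targets called relative to Mlxipl, and the ratios Acly to Acss2 and Acacb to Acaca kept their direction and their side of the threshold, or for counts stayed within 1.5 times, under every alternative run. The count relative to Srebf1 (2 of 7) did not. With array weights it was 5, but that fit gave Fasn an adjusted p of 7.84e-100, where the exact permutation p was 0.0857. A p-value that small cannot rest on 8 libraries, so no conclusion is drawn from that count. The count was 0 by the exact permutation test, and from 0 to 4 with 1 library left out, the 4 without db/db replicate 1. With that library left out the exact test gave 5 of 8, Pnpla3 included, with no share of all genes to set beside it. This alternative was chosen after the data were seen. Acss2 relative to Srebf1 ranged from -0.0217 to 0.649 with 1 library left out, and was -0.00635 without db/db replicate 4. Some list genes near no change turned direction. With 1 library left out Mylip ranged from -0.194 to 0.0137, Abcg5 from -0.149 (without db/db replicate 1) to 0.201, Pnpla7 from -0.0781 to 0.00851 and Pnpla6 from -0.0773 to 0.124, and Abcg5 was -0.0328 with array weights. G6pdx ranged from -0.214 to 0.00510 with 1 library left out, and Ttr was 0.228 with quantile normalization. Pnpla6 was -0.0339 with median-ratio scaling and -0.0576 with quantile normalization. The cause of these shifts was not tested. Acss2 passed with array weights, with the 5 FPKM filter and without db/db replicate 1, and its adjusted p ranged from 0.0019 to 0.142 over the alternatives. Pnpla3 could be fitted only with no filter. Low levels such as that of Pnpla3 are the least precise. No paired analysis was run, because the labels do not pair db/db with control libraries.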
